A study of Drosophila melanogaster with 4 samples.

Results

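The Antennapedia complex of Drosophila melanogaster was described by dRING binding across 6 homeobox genes, namely lab, pb, Dfd, Scr, ftz and Antp. Its members were chosen by position, as every enriched interval of the deposited lists that overlapped arm 3R from 2.48 to 2.845 Mb (FlyBase release 5, the stretch from lab to Antp, 365 kb). The window held 69 of the 7386 regions of the series list, 55 of the 3458 clusters of ChIP replicate 1 and 33 of the 3048 clusters of ChIP replicate 2 on the 6 chromosome arms. The assay was ChIP-seq, in which chromatin bound by a protein is pulled down with an antibody and sequenced, with the Q3200 antibody to dRING in whole embryos of the wild-type strain Oregon-R aged 14 to 16 h. There were 2 ChIP libraries and 2 input libraries, and the titles give each ChIP library an input with the same replicate number. There was no mutant, no treatment and no second stage. A whole embryo mixes segments in which a Hox gene is on with segments in which it is off, and these cannot be told apart here.

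Hox genes give each segment of the body its identity, and in the fly they lie in a pair of clusters, the Antennapedia and the bithorax complex. The protein dRING, product of Sex combs extra, is a subunit of Polycomb repressive complex 1, which keeps Hox genes silent outside their own segments, and it adds ubiquitin to histone H2A. Polycomb proteins are known both for narrow peaks at Polycomb response elements, the DNA elements that recruit them, and for broad domains of weaker enrichment over silent genes. Of the members, lab acts in the intercalary segment of the head and in the midgut, pb shapes the adult mouthparts, Dfd acts in the mandibular and maxillary segments, and Scr in the labial segment and the first thoracic segment. Antp acts in the thorax and promotes leg over antenna. In Drosophila ftz has no homeotic role and serves as a pair-rule gene of segmentation.

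All 6 members matched the RefSeq gene table, whose assembly is release 6 and which was used for names and neighbours only. Ordered by their starts, 43 genes of that assembly lie from lab to Antp inclusive, of which 19 code for protein. Between lab and pb it lists 9 genes, most of them the Ccp84A cuticle protein genes. Between pb and Dfd it lists 10, among them zen and zen2 (dorsal patterning), bcd (the maternal determinant of the anterior) and Ama. The stretch from Dfd to Scr holds 9 genes and none that codes for protein, mir-10 and several transfer RNA genes among them. From Scr to ftz there are 6 long noncoding RNA genes and from ftz to Antp 3. No release 5 annotation was used, so intervals are given by position and none is assigned to a promoter or a response element.

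The window was split at 2700000, a round position between ftz and Antp set from general knowledge of the map. The lab to ftz end then spanned 220 kb with 5 members, and the Antp end 145 kb with 1. An interval was counted in the end that held its midpoint, and covered bases were cut at the borders. Each interval carries the authors' score, a number with no stated scale, so places were compared within a list. Where scores of the 2 libraries are set side by side, it is not known that they share a scale. On all arms the mean score was 0.77 in replicate 1 and 0.96 in replicate 2. A mean, SD or difference across the libraries thus describes the deposited values only. An exact permutation test over 2 libraries cannot give a two-sided p below 0.5, so the values below are given for each library without a test. The labels do not tell whether separate embryo collections were used for the replicates, and their spread may be technical.

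dRING clusters covered a larger share of the Antp end than of the lab to ftz end in both libraries. In replicate 1 clusters covered 71.4% of the Antp end and 38.5% of the lab to ftz end. In replicate 2 they covered 30.4% and 18.3%. The Antp end was thus covered more in each library, by 32.9 percentage points in replicate 1 and 12.1 in replicate 2, a mean difference of 22.5 ± 14.7 points (SD, n = 2). Between the libraries the cover differed by 41.0 points in the Antp end, 20.2 in the lab to ftz end and 28.5 in the whole window, and the Antp end of replicate 2 had less cover than the lab to ftz end of replicate 1. In the series list 87.4% of the Antp end and 57.5% of the lab to ftz end were covered. Over all arms the cover was 7.57% in replicate 1, 5.94% in replicate 2 and 13.6% in the series list, so each end lay above the arms in every list.

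**Figure D1:**
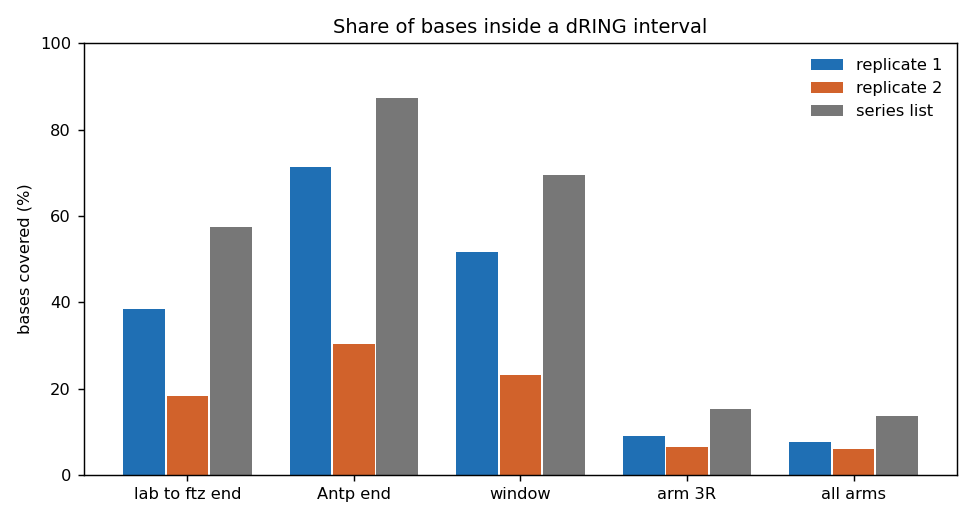
Bars give the percentage of bases inside a dRING interval (vertical axis) in each end of the Antennapedia complex window, the whole window, arm 3R and all arms, for ChIP replicate 1, ChIP replicate 2 and the series list. The Antp end stands at 71.4% in replicate 1 and 30.4% in replicate 2, and all arms at 7.57% and 5.94%.

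To place this cover within the genome, the arms were divided into tiles of the same length as the window. Of 327 tiles, 1 (0.306%) had at least the 51.6% cover of the window in replicate 1, and 3 (0.917%) had at least its 23.1% in replicate 2. For tiles as long as the Antp end the counts were 1 of 827 (0.121%) in replicate 1 and 5 of 827 (0.605%) in replicate 2. The lab to ftz end also stood high, with 6 of 544 tiles (1.1%) in replicate 1, 16 of 544 (2.94%) in replicate 2 and 4 of 544 (0.735%) in the series list at or above its cover. The replicate 1 tile above the window and the one above the Antp end both overlapped the domain with the most covered bases on the arms, 3R from 12521907 to 12810523. None of the tiles at or above the cover of the window or of the Antp end overlapped the window itself. For the lab to ftz end this was not checked, and a tile over the Antp end may be among those counted. The window was set on the complex, whereas the tiles were not fitted to any domain and can cut across one. The shares can thus make the window and its ends look rarer than they are. They describe the map and are no test.

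The ends also differed in how their cover was divided. The series list had 51 regions in the lab to ftz end, with a median length of 1918 bp and none longer than 9.90 kb. It had 18 regions in the Antp end, with a median of 5122 bp and the longest at 23.6 kb. In replicate 1 the medians were 1930 and 2493 bp, and the longest clusters 9.02 and 17.3 kb. In replicate 2 the medians were 1901 and 2233 bp, and the longest clusters 3.97 and 5.01 kb. Long stretches therefore marked the Antp end in replicate 1 and in the series list, whereas replicate 2 had no cluster of 10 kb or longer anywhere in the window.

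In steps of 10 kb the cover rose and fell along both ends, and bins without any cluster lay in the lab to ftz end. Each of the 14 full bins of the Antp end held cluster bases in both libraries, with medians of 74.8% in replicate 1 (35.9 to 100%) and 28.8% in replicate 2 (0.71 to 60.6%). Of the 22 bins of the lab to ftz end, 2 held none in replicate 1 and 7 held none in replicate 2, and the medians were 33.4% and 12.1%. At least 50% was covered in 12 of 14 bins of the Antp end and 5 of 22 of the lab to ftz end in replicate 1. In replicate 2 these counts were 3 of 14 and 3 of 22, so this contrast was seen in 1 library. The 3 well-covered bins of the lab to ftz end in replicate 2 began at 2500000, 2640000 and 2670000.

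**Figure D2:**
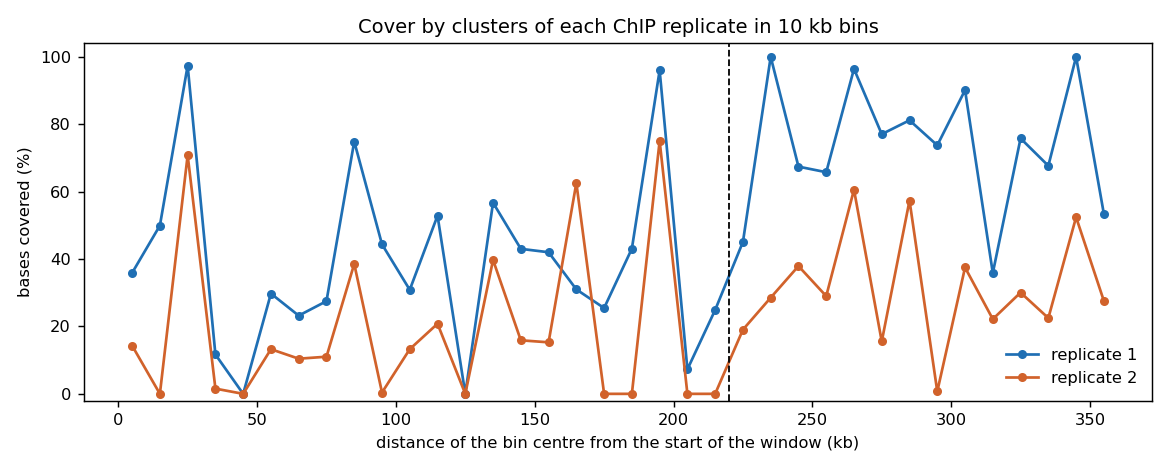
Points give the percentage of bases covered by clusters (vertical axis) in 10 kb bins along the window, against the distance of the bin centre from the start of the window in kb, for each ChIP replicate; the dashed line marks the split between the ends. Replicate 1 runs above replicate 2 in most bins, and the 14 bins right of the line all hold cluster bases in both.

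The uncovered stretches lay mostly in the lab to ftz end. Without a cluster of either replicate, the longest ran from 2511168 to 2533197 (22.0 kb), the next from 2599851 to 2614327 (14.5 kb) and the third from 2536670 to 2547678 (11.0 kb). In the Antp end the longest was 8.31 kb, from 2793591 to 2801903. The 22.0 kb stretch was not empty in the series list, which had short regions there, and the longest gap of that list was 9.22 kb, from 2680062 to 2689282. Both bins that held no replicate 1 cluster, from 2520000 and from 2600000, lay in the first 2 of these stretches.

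The score over covered bases was also somewhat higher in the Antp end. Weighted by length, the mean score of replicate 1 clusters was 0.96 in the Antp end and 0.85 in the lab to ftz end, and that of replicate 2 clusters 1.18 and 0.91. The difference was 0.19 ± 0.11 (SD, n = 2), with the same direction in both libraries. In replicate 1 that direction rests on 1 cluster of the Antp end, of 17.3 kb with a score of 1.70. In replicate 2 the highest cluster, of 4.60 kb with 3.01, adds to the difference. Median scores of replicate 1 were 0.61 in the Antp end and 0.57 in the lab to ftz end. Those of replicate 2 were 0.83 and 0.68. The weighted means were close to those of all arms, at 0.93 in replicate 1 and 1.11 in replicate 2. The window thus stood out by the extent of its cover, while its scores lay near the average of the lists. In the series list 6 of 69 regions (8.70%) reached the top 10% of the scores of all arms, a share near 10%. The share was lower in the replicate lists. In replicate 1 it was 2 of 55 clusters (3.64%), and in replicate 2 it was 1 of 33 (3.03%).

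**Figure D3:**
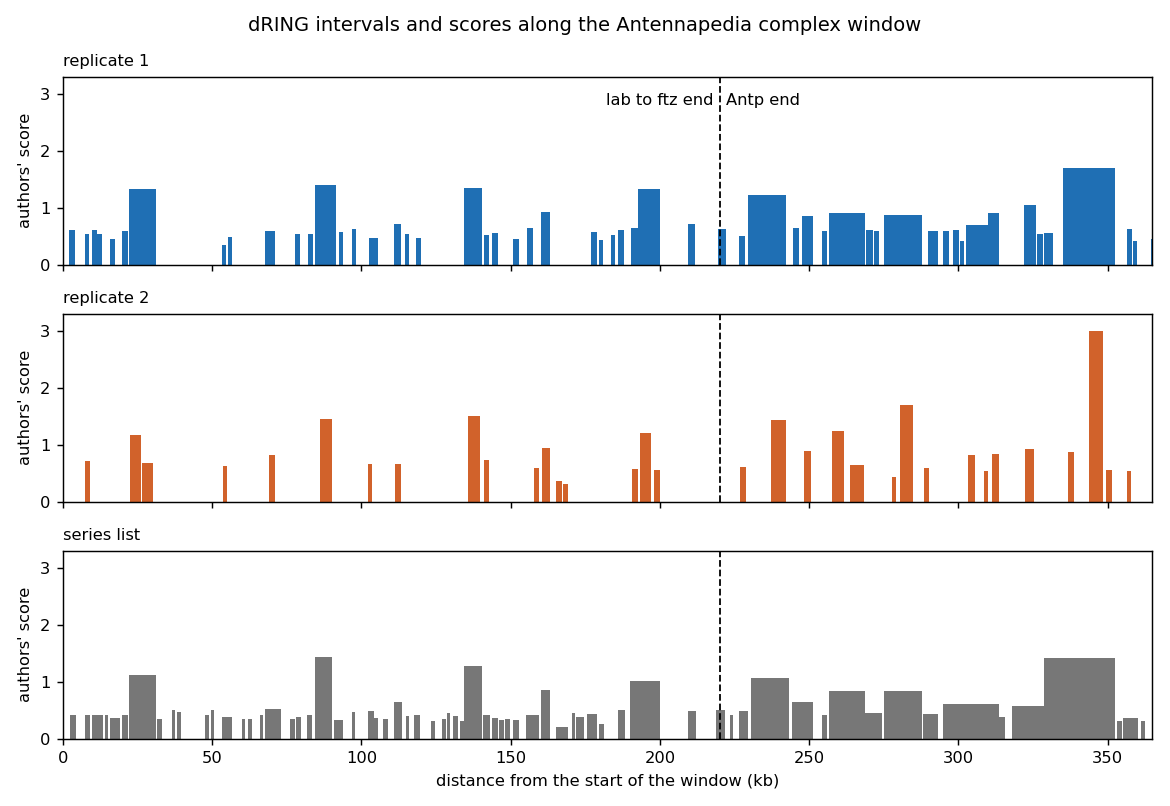
Each block is a dRING interval, drawn from its start to its end in kb from the start of the window (horizontal axis) and as high as the authors' score (vertical axis), for ChIP replicate 1, ChIP replicate 2 and the series list; the dashed line marks the split between the ends. Right of the line, wide blocks lie close together in replicate 1 and the series list, while those of replicate 2 are narrower and further apart. The tallest block is the replicate 2 cluster with a score of 3.01.

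The regions of the series list were next set against the libraries. A region counted as seen in both where each replicate had a cluster on it, which held for 22 of the 69 regions of the window (31.9%), near the 28.4% of all arms. These 22 held 65.7% of the listed bases of the window, against 50.0% on all arms. By end, 10 of 18 regions of the Antp end (55.6%) and 12 of 51 of the lab to ftz end (23.5%) were seen in both, and they held 85.8% and 45.0% of the listed bases. Longer regions meet a cluster more often by position alone, and the regions of the Antp end were longer. Replicate 1 alone overlapped 22 regions of the window (31.9%, against 15.3% on all arms). Replicate 2 alone overlapped 2 (2.90%, against 8.69%), and neither overlapped 23 (33.3%, against 47.6%). Of the 23, 12 fell below the length of any replicate cluster, as did 2030 of 3513 such regions on all arms.

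In the lab to ftz end 5 regions were named by rule, as those seen in both replicates with the highest series scores. The region from 2564340 to 2570322 had the highest series score of the window, 1.44, and its clusters scored 1.40 in replicate 1 and 1.45 in replicate 2 (mean 1.43 ± 0.04, SD, n = 2). The region from 2614313 to 2620450 had a series score of 1.27, with 1.34 and 1.51 in the replicates (1.43 ± 0.12, SD, n = 2). At the side of the window where lab lies, the region from 2502142 to 2511098 had a series score of 1.12. Its clusters scored 1.33 in replicate 1, where 1 cluster filled 99.9% of it, and at most 1.16 in replicate 2, where 2 clusters filled 80.8%.

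Towards the ftz side, the region from 2670160 to 2680061 was the longest of this end at 9.90 kb and had a series score of 1.02. Its highest clusters scored 1.33 in replicate 1 and 1.20 in replicate 2 (1.27 ± 0.09, SD, n = 2). The narrowest of the 5, from 2640038 to 2643163, spanned 3.13 kb and had a series score of 0.86, with 0.92 and 0.95 in the replicates. At these 5 regions the score values of the libraries lay close to each other, and neither was always the higher. The sixth named region, from 2547672 to 2552940, entered by its length and had a series score of 0.51. The other 6 regions of this end seen in both replicates spanned 1.92 to 4.52 kb and scored 0.38 to 0.64.

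In the Antp end the higher scores sat inside long regions. Those of the lab to ftz end also lay in its longest regions, of 5.98 to 9.90 kb, apart from the one of 3.13 kb. The longest region of the Antp end, from 2808769 to 2832357, spanned 23.6 kb and had a series score of 1.42, the second highest of the window. Its highest cluster scored 1.70 in replicate 1 and 3.01 in replicate 2 (2.35 ± 0.92, SD, n = 2). The region from 2710544 to 2723305 (12.8 kb, series score 1.06) had 1.23 in replicate 1 and 1.44 in replicate 2. The region from 2736555 to 2748553 (12.0 kb, 0.85) had 0.91 and 1.25, and that from 2755204 to 2767947 (12.7 kb, 0.83) had 0.86 and 1.71. In these 4 regions replicate 2 gave the higher score each time, and its mean score was the higher on all arms too.

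A long region with lower scores ran from 2774902 to 2793659. It spanned 18.8 kb with a series score of 0.61, in 5 clusters of replicate 1 and 3 of replicate 2 that scored at most 0.91 and 0.84. The region from 2724402 to 2731338 (6.94 kb, series score 0.65) had 0.86 and 0.89 (0.87 ± 0.03, SD, n = 2). Over the 5 regions of the Antp end with the highest series scores, the replicate 2 score minus the replicate 1 score ran from 0.04 to 1.31, and over those of the lab to ftz end from -0.16 to 0.17. The 2 ranges overlap, and the long region from 2774902 to 2793659 had -0.07. The 6 named regions made up 67.3% of the listed bases of the Antp end. The other 4 seen in both replicates spanned 2.93 to 10.7 kb and had series scores of 0.37 to 0.58. The longest of them, from 2797925 to 2808579, held the third highest replicate 1 cluster of this end. That cluster, from 2801904 to 2806099, scored 1.05, and the replicate 2 cluster on it scored lower, at 0.92.

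The wide clusters of replicate 1 were set against the narrower clusters of replicate 2 inside them. All 4 replicate 1 clusters of 10 kb or longer in the window lay in the Antp end. The cluster from 2709584 to 2722238 held 1 replicate 2 cluster, those from 2736566 to 2748576 and from 2755188 to 2767870 held 2 each, and the one from 2814963 to 2832304 held 3. Replicate 2 covered 39.6%, 70.3%, 45.7% and 51.0% of them, in that order. On all arms the median over 73 such clusters was 61.7%.

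In each of the 4, the strongest replicate 2 cluster had a higher score than the wide cluster around it. On all arms this was so for 61 of 73 (83.6%), so the count of 4 follows the common pattern. The size of the gap was not common: in the cluster from 2814963 to 2832304 it was 1.31, the largest of all 73, whose median was 0.20. The replicate 2 cluster behind it ran from 2823720 to 2828314 (4.60 kb) and its score of 3.01 ranked 51 of the 3048 on the arms, while the replicate 1 cluster, with 1.70, ranked 202 of 3458. The other 2 replicate 2 clusters inside the same wide cluster scored 0.87 and 0.55. The second largest gap of the window was 0.84, from 2755188 to 2767870, where the replicate 2 cluster from 2760603 to 2764845 scored 1.71. A score for 17.3 kb and one for 4.60 kb are not the same measure, and each list carries its own scores, so the gap does not measure how binding differed.

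Where the libraries overlapped, most replicate 2 clusters lay inside a wider replicate 1 cluster. Over all clusters of the window the median lengths were alike, at 2099 bp in replicate 1 and 2145 bp in replicate 2. Of 33 replicate 2 clusters, 30 overlapped a replicate 1 cluster (90.9%, against 76.8% on all arms), all 16 of the Antp end among them. Each of the 30 was paired with the replicate 1 cluster it overlapped most, which gave 23 distinct replicate 1 clusters. The replicate 2 cluster lay wholly inside its partner in 21 of 30 pairs (70.0%), against 36.9% of pairs on all arms. Replicate 1 covered 51.6% of the window against 7.57% of all arms. Replicate 2 clusters thus meet or lie inside its clusters there more often by position alone. Median lengths in the pairs were 6631 bp for replicate 1 and 2181 bp for replicate 2, where on all arms they were 2209 and 2139 bp. A wide replicate 1 cluster counts once for each of its pairs, and the 23 distinct ones had a median of 3587 bp. By end, 12 of 16 pairs of the Antp end and 9 of 14 of the lab to ftz end were nested in this way.

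**Figure D4:**
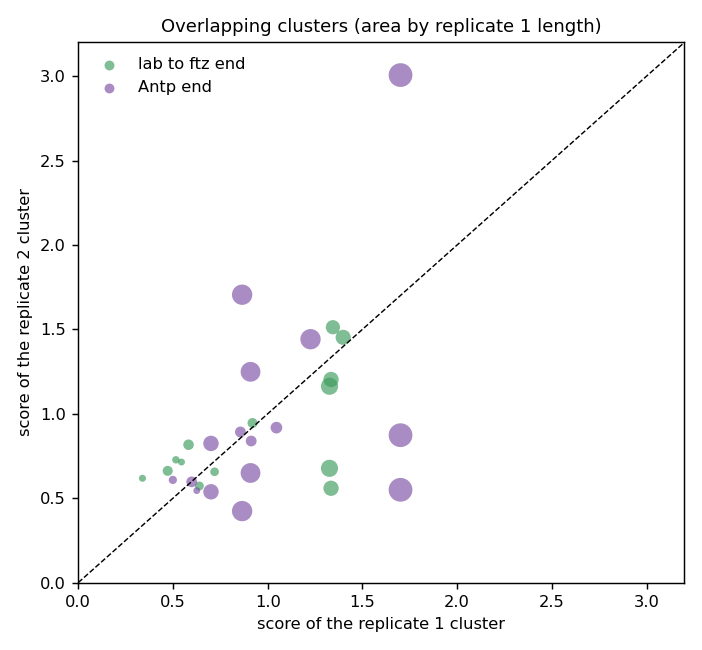
Each point is a replicate 2 cluster of the window plotted by its score (vertical axis) against that of the replicate 1 cluster it overlaps most (horizontal axis), coloured by end, with an area in proportion to the replicate 1 length; the dashed line marks equal scores. Large points lie on both sides of the line, because 1 long replicate 1 cluster can hold a replicate 2 cluster with a higher score and others with lower ones, as at 3.01, 0.87 and 0.55.

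Replicate 2 scores were higher in 15 of the 30 pairs (50.0%), against 71.4% of pairs on all arms. When each replicate 1 cluster was set against its strongest replicate 2 cluster only, the count was 15 of 23 (65.2%), nearer to the 76.9% of all arms. In the first count several replicate 2 clusters can share 1 wide partner. By the second count the share was still below that of all arms, and the reason was not tested. The median difference by this second count was 0.11 in the window and 0.15 on all arms.

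From the side of replicate 1, fewer clusters were shared. Of its 55 clusters in the window 23 overlapped a replicate 2 cluster (41.8%), below the 63.3% of all arms, with 11 of 23 in the Antp end and 12 of 32 in the lab to ftz end. The 32 without a partner were short, with a median of 1866 bp and a longest of 3054 bp, and scored from 0.41 to 0.72. The highest of them ran from 2689273 to 2691862. The 23 shared ones had a median of 3587 bp and scores from 0.34 to 1.70. Only 3 replicate 2 clusters had no partner, all in the lab to ftz end. Of these, 2 lay next to each other, from 2645237 to 2647088 and from 2647400 to 2649184, with scores of 0.35 and 0.31, the lowest of replicate 2 in the window. They matched the 2 regions seen in replicate 2 alone, whose series scores of 0.20 and 0.21 were the lowest of the 69.

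Shared bases gave the same picture from both sides. The replicates shared 76.8 kb of the window, which was 91.1% of the bases of replicate 2 and 40.8% of those of replicate 1. On all arms these shares were 78.4% and 61.6%. The share of replicate 2 rises by position alone where replicate 1 covers more. Replicate 1 covered 2.23 times as much of the window as replicate 2, against 1.27 times on all arms, with 2.35 times in the Antp end and 2.10 times in the lab to ftz end. The libraries thus differed in cover in both ends, and by a larger ratio than on the arms.

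The edges of the series regions lay closer to those of replicate 1 than to those of replicate 2. Of the 44 edges of the 22 regions seen in both replicates, 23 (52.3%) lay within 100 bp of an edge of a replicate 1 cluster, and 2 (4.55%) within 100 bp of one of replicate 2. On all arms the shares were 58.1% for replicate 1 and 52.1% for replicate 2. In the Antp end 11 of 20 edges lay that close to an edge of replicate 1 and 0 of 20 to one of replicate 2. The borders of the long regions there were thus those seen in 1 library, or in neither.

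Finally the Antp stretch was set beside the other long domains, formed by joining regions that both replicates had marked and that lay within 10 kb of each other. Its domain, from 2706479 to 2840078, had the third most covered bases of all domains. Replicate 1 covered 75.6% of it and replicate 2 33.0%, a ratio of 2.29, the highest among the 10 domains with the most covered bases, where the other 9 ranged from 1.05 to 2.01. The larger domain on 3R from 12521907 to 12810523 had 85.1% and 44.9%, a ratio of 1.89. The Antp domain had fewer clusters in replicate 2 than in replicate 1 (16 against 21), as 2 of the 10 domains did, while 7 had more and 1 had equal numbers. Its highest cluster scores were 1.70 in replicate 1, which 4 of the other 9 exceeded, and 3.01 in replicate 2, which 1 exceeded. The 10 were chosen by their covered bases, so their order is a description.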

How the data were processed

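Sample titles gave the groups and the replicate numbers. The deposited lists give positions in FlyBase release 5, per the file headers, and a deposited score for each interval, whose scale is not stated. The submitters' processing notes name Bowtie 0.12.7. The sources used here do not give how regions were called, at which threshold, or how the series list was built. Depth is unknown, since the files hold no counts of reads, and the inputs entered only through the authors' lists. Backgrounds were taken over X, 4 and the arms 2L, 2R, 3L and 3R.

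Python 3.11.15 was used with scipy 1.17.1, numpy 2.4.6 and, for the plots, matplotlib 3.10.9. Overlap means at least 1 bp. Functions for cover and overlap were tested on simulated data. The members, the split and the rule for named regions (among regions seen in both replicates, the 5 longest and the 5 of highest score in each end, and the 3 highest clusters of each replicate) were chosen with earlier results of these data known. Tiles, bins, domains, wide clusters, gaps and unshared clusters were chosen after the files were seen. Planned counts of promoter motifs were not made: no sequence was used here.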

Additional observations from a re-analysis of the deposited data

How the results depend on the processing

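Of 29 recomputed values, no difference changed direction, and a count of regions has no direction to change. In all, 26 moved by less than the spread between replicates or, for counts, by less than 1.5 times. For the difference between the libraries, the spread over the ends was used. Leaving out 1 of 2 replicates always moves a mean by less than the SD, so for the differences between the ends that outcome was fixed in advance. The difference in cover between the ends ranged from 19.2 to 24.4 points over other splits and filters, was 12.1 to 32.9 with a replicate left out and 29.8 in the series list. The difference in score ranged from 0.12 to 0.23, and from 0.11 to 0.27 with a replicate left out. None of these settings left out the highest cluster of the Antp end. The difference between the libraries in cover of the window ranged from 23.4 to 30.4 points. The count of 22 regions seen in both replicates fell to 12 when each list kept only intervals scoring above its median, and to 11 when at least 50% of the region had to be covered by each replicate. With a replicate left out, the regions seen in the remaining library numbered 24 to 44, and the 44 were those of replicate 1 (without replicate 2). No paired analysis was possible because the replicate numbers pair each ChIP library with its input, and the inputs entered only through the authors' lists. The unknown depth limits how far an uncovered stretch can be read as unbound.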

Other observations

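Length and score rose together within each list of the Antp end (Spearman's rho of 0.81 across 23 clusters of replicate 1, 0.86 across 16 of replicate 2 and 0.88 across 18 regions of the series list). In the lab to ftz end the values were 0.66, 0.66 and 0.34, over 32, 17 and 51 intervals. These are descriptions across places that share a library, and on all arms the values were 0.69, 0.72 and 0.35.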
